A study of Mus musculus with 8 samples.

Results

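A group of 9 genes of the class I phosphoinositide 3-kinase (PI3K) system was followed across 4 mouse models of endometrial cancer (EC). They were taken by gene symbol from a count table of 24419 genes. The 9 genes are the catalytic subunits Pik3ca, Pik3cb, Pik3cd and Pik3cg, the regulatory subunits Pik3r1, Pik3r2, Pik3r3 and Pik3r5, and the lipid phosphatase Inpp4b. All 9 of 9 had enough reads to be tested among the 15875 genes that passed the low-count filter.

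Each model had 2 RNA-seq libraries, and TPM is here the name of a model, not a unit. The tumors were started from uterus organoids of CAG-Cas9-EGFP mice, which were edited in culture and transplanted into the uterus of female nude mice, hosts that lack a thymus but keep macrophages, neutrophils, B cells and natural killer cells. In all 4 models the edits include an sgRNA against Trp53. TPM, TPMCa and TPMR1 also overexpressed Myc from a retrovirus. TPMCa, called TPMPik3ca in the labels, added a Pik3ca E545K cDNA to TPM, and TPMR1, called TPMPik3r1, added an sgRNA against Pik3r1. TPK, in which no Myc was introduced, carried no engineered change in any of the 9 genes. The labels call the material tumor organoids, whereas the study's methods describe RNA from tumor tissue about 2 months after transplantation. By the study's methods, the donor mice were 8 to 10 weeks old and the BALB/cA-nu hosts 8 weeks old. Cas9 was driven by the broadly active CAG promoter. The labels do not tie the libraries to mice, but the study's legends for tumor expression count a pair of mice per model. The p-values measure the spread between these libraries.

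Class I PI3K adds a phosphate to the inositol ring of a membrane lipid and so makes phosphatidylinositol trisphosphate, which recruits PDK1 and AKT to the membrane. The alpha and beta catalytic subunits, encoded by Pik3ca and Pik3cb, are found in most tissues, whereas the delta and gamma subunits, encoded by Pik3cd and Pik3cg, are found mainly in leukocytes. Pik3r1, Pik3r2 and Pik3r3 encode adaptors that stabilize and restrain the alpha, beta and delta subunits, and Pik3r5 encodes an adaptor of the gamma subunit that responds to G protein coupled receptors. Inpp4b removes a phosphate from phosphatidylinositol bisphosphate, a product made when the trisphosphate is broken down. In the endometrium, mutations of PIK3CA and PIK3R1 are among the most common changes of human carcinoma.

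The engineered changes of Pik3ca and Pik3r1 are shown first because the comparisons of TPMCa and TPMR1 with TPM turn on them. On the GRCm38 build, the Pik3ca codon that is changed lies in exon 10 of 21 of a coding transcript, in the coding sequence, on the plus strand (chr3:32448036-32448062 for the window printed). Capitals mark the reference codon that E545K alters. The coding change G1633A, counted from the first base of the start codon, turns it into a lysine codon and is the only single-base change that gives E545K. The Pik3r1 sgRNA matched chr13:101690544-101690562 on the strand opposite to the gene, in exon 8 of 16 of 1 coding transcript and exon 2 of 10 of another. The site lay in the coding sequence of 3 of the 4 coding transcripts and in 5 of all 7 transcripts of the gene. Capitals mark the PAM, which was read from the reference transcripts and is not part of the guide of 19 bases.
Pik3ca codon with its neighbours: tctgaaatcactGAAcaagagaaagac
Pik3r1 guide with PAM: ttggctacagtagtgggctTGG

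Total counts ran from 15748396 to 26943611 per library, and levels are given as CPM, counts per 1000000 counts after scaling by TMM factors. At this depth 3 counts, used as the floor, came to 0.116 to 0.198 CPM. Replicates were far apart in TPMR1, where 2701 of the genes tested differed by more than 4-fold between its libraries, compared with 749 in TPM, 972 in TPK and 1293 in TPMCa. The libraries also differed in the levels of marker genes of several cell types. The summed level of 7 leukocyte markers, with Ptprc listed first, ran from 71.8 CPM in TPMR1 replicate 1 to 1330 CPM in TPMCa replicate 2. The 8 macrophage markers (Adgre1 first) ran from 363 to 5039 CPM between the same libraries, and the 6 measured neutrophil markers (S100a8 first) from 15.4 CPM in TPMR1 replicate 1 to 2364 CPM in TPMCa replicate 1. The 10 lymphocyte markers (Cd3d first) stayed low, with a median of 4.64 CPM and a maximum of 188 CPM in TPMCa replicate 2, and Cd3e and Ms4a1 were at 0 in 2 libraries each, Cd3g in 5, Ncr1 in 3 and Nkg7 in 1. The 7 fibroblast markers (Col1a1 first) ran from 880 to 16651 CPM, the 6 endothelial markers (Pecam1 first) from 59.7 to 692 CPM, and the 5 smooth muscle markers (Acta2 first) from 34.6 to 791 CPM.

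Epithelial and uterine markers were read in the same way. The 6 general epithelial markers (Epcam first) summed to 5498 and 2941 CPM in TPM and 3236 and 4963 CPM in TPK, but to 73.3 and 23.7 CPM in TPMCa and 6.47 and 27.4 CPM in TPMR1. The 6 squamous markers summed to at least 3196 CPM in each TPM and TPK library and to at most 11.7 CPM in each TPMCa and TPMR1 library, where the defining gene Krt5 was at 0 in both TPMR1 libraries. Sprr1b was at 0 in all 4 of these libraries, Dsg3 in 3, and Trp63 and Ivl in 1 each. The 4 uterine gland and hormone receptor markers summed to between 20.3 and 238 CPM. Of these, Esr1 was present in every library, whereas Pax8 was at 0 in 1 TPMR1 library and Foxa2 in both. General epithelial and squamous markers were therefore low at the transcript level in TPMCa and TPMR1. The study's histology described glandular structures in tumors of both models, and these counts do not address tissue structure.

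Across the 4 models, 0 of the 9 genes passed edgeR's quasi-likelihood test for any difference at an adjusted p of 0.05, a test that 7.32% of all genes tested passed. At an unadjusted p under 0.05 there were 4 members, Pik3cb, Pik3cd, Pik3cg and Pik3r3, against 27.9% of all genes. DESeq2 called 4, Pik3cb, Pik3cd, Pik3cg and Inpp4b, against 30% of all genes. In single comparisons only Pik3cb passed. It was lower in TPMR1 than in TPM, and lower in the mean of TPMCa and TPMR1, the models with an engineered PI3K subunit gene, than in the mean of TPM and TPK. The sides of that joint comparison also differ in Myc, which was introduced in all these models but TPK. The part of Myc was not tested. The comparisons share libraries, the 3 against TPM the same controls, so they are not independent of each other.

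**Figure D1:**
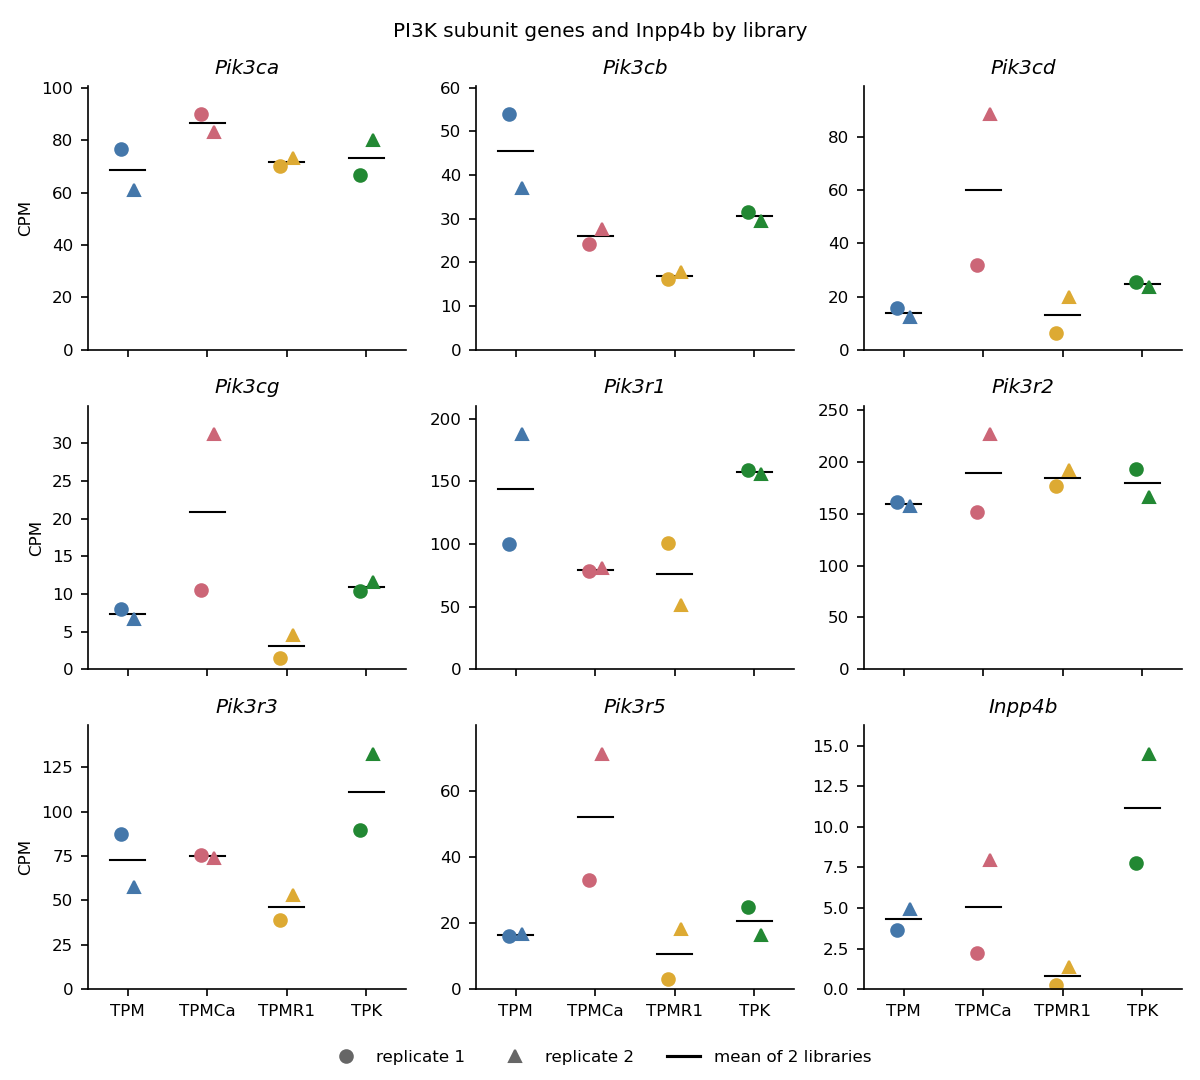
Level of each of the 9 genes in each of the 8 libraries, in CPM on a linear axis from 0, with circles for replicate 1, triangles for replicate 2 and a black line for the mean of the 2 libraries of a model. Pik3ca and Pik3r2 stayed within a 1.48-fold and a 1.49-fold range, Pik3cb was lowest in both TPMR1 libraries, and Pik3cd, Pik3cg and Pik3r5 were highest in TPMCa replicate 2 and lowest in TPMR1 replicate 1.

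**Figure D2:**
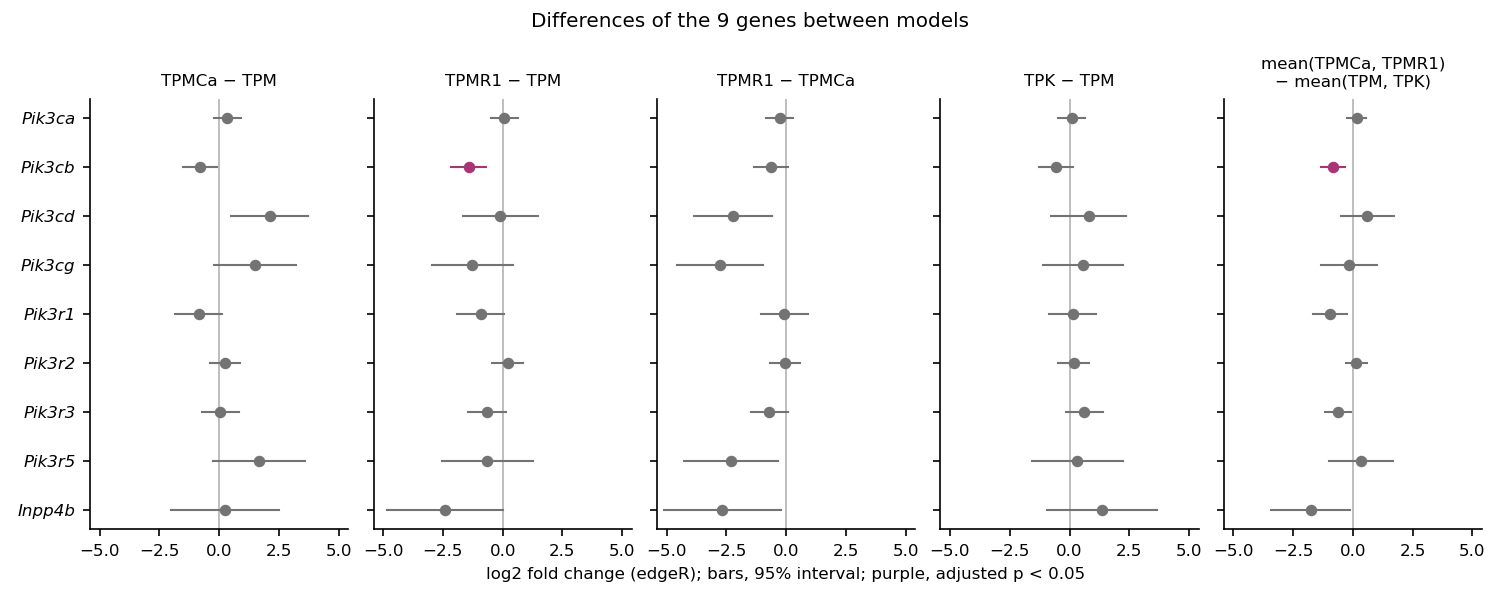
Log2 fold change of each gene in the 5 comparisons (points) with its 95% interval (bars) from edgeR, in purple where the adjusted p was under 0.05. Pik3cb was the only gene past the threshold, at -1.43 for TPMR1 against TPM and at -0.83 for the mean of TPMCa and TPMR1 against the mean of TPM and TPK.

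Pik3ca (chr3:32397671-32468486) encodes the alpha catalytic subunit. It stood at 76.6 and 60.9 CPM in TPM, at 89.9 and 83.3 CPM in TPMCa, at 70.2 and 73.1 CPM in TPMR1, and at 66.6 and 80.1 CPM in TPK. Both libraries with the added Pik3ca cDNA were above all 6 others, the next being TPK replicate 2 at 80.1 CPM. The counts do not separate the cDNA from the endogenous transcript. The difference between TPMCa and TPM did not pass the test (log2 fold change 0.33, 95% interval -0.23 to 0.90, adjusted p = 0.436 by edgeR). In TPMR1 against TPM it was 0.06 (-0.50 to 0.62), and in TPK against TPM 0.09 (-0.47 to 0.66). The whole spread of Pik3ca over the 8 libraries was 1.48-fold, and 3.42% of all genes tested had a smaller one on the log2 CPM scale. The study reported strong PIK3CA protein staining in TPMCa tumors, which these counts do not measure.

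Pik3cb (chr9:99036654-99140621) encodes the beta catalytic subunit, which takes signals from receptor tyrosine kinases and G protein coupled receptors. It was at 53.9 and 37.0 CPM in TPM and at 31.7 and 29.5 CPM in TPK. In TPMCa it was at 24.3 and 27.8 CPM and in TPMR1 at 16.1 and 17.7 CPM. The models fell in the order TPM, TPK, TPMCa, TPMR1, and no library overlapped with a neighbouring model. TPMR1 was lower than TPM by a log2 fold change of -1.43 ± 0.30 (SE, 95% interval -2.15 to -0.70), with an adjusted p of 0.0475 in edgeR, so that Pik3cb was the 1 gene of 9 called in this comparison, where 5.58% of all genes were, and 4.5% were called lower. TPMCa was lower than TPM by a log2 fold change of -0.80 (-1.52 to -0.09), which did not pass (adjusted p = 0.187 in edgeR). TPK against TPM was -0.57 (-1.29 to 0.14) and TPMR1 against TPMCa -0.62 (-1.34 to 0.09), and neither passed.

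With TPMCa and TPMR1 together against TPM and TPK, Pik3cb differed by a log2 fold change of -0.83 ± 0.21 (SE, 95% interval -1.34 to -0.32, adjusted p = 0.0403 in edgeR). This was again 1 gene of 9, in a comparison where 18.1% of all genes were called, 11.5% lower and 6.64% higher. It was also the only 1 of the 9 whose 4 libraries on each side did not overlap, which held for 24.8% of all genes tested. Both calls lay close to the threshold. TPMR1 against TPM passed in 3 of 16 alternative settings, with an adjusted p between 2.1e-04 under DESeq2, which called 18.1% of all genes there, and 0.306 without TPM replicate 1, and in none of the 8 fits that left out 1 library. The joint comparison passed in 4 of 15, with an adjusted p between 0.0027 and 0.192. The log2 fold change stayed negative in every setting, from -1.67 to -1.10 and from -0.96 to -0.65. Epithelial markers were lower in the same libraries, and over the 8 libraries the Pearson r of log2 Pik3cb with the summed general epithelial markers was 0.83, as a description of libraries that share their scaling. The part of cell mixture in the Pik3cb difference was not tested.

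Pik3cd (chr4:149649168-149702571), the delta catalytic subunit gene of lymphoid and myeloid cells, stood at 15.5 and 12.4 CPM in TPM, at 31.9 and 88.5 CPM in TPMCa, at 6.23 and 19.8 CPM in TPMR1, and at 25.4 and 23.7 CPM in TPK. Pik3cg (chr12:32173473-32208659), which encodes the gamma subunit that acts downstream of chemokine receptors, stood at 8.07 and 6.69 CPM in TPM, at 10.5 and 31.2 CPM in TPMCa, at 1.55 and 4.61 CPM in TPMR1, and at 10.5 and 11.5 CPM in TPK. Its adaptor gene Pik3r5 (chr11:68432121-68497849) stood at 16.1 and 16.8 CPM in TPM, at 33.0 and 71.2 CPM in TPMCa, at 3.02 and 18.2 CPM in TPMR1, and at 25.0 and 16.3 CPM in TPK. All 3 genes had the same highest and the same lowest library, TPMCa replicate 2 and TPMR1 replicate 1, and within each of these models the replicates were 2.16-fold to 6.04-fold apart.

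In TPMCa against TPM, Pik3cd had a log2 fold change of 2.11 (0.49 to 3.72), Pik3cg of 1.50 (-0.20 to 3.20) and Pik3r5 of 1.66 (-0.27 to 3.60). Both TPMCa libraries were above both TPM libraries for each of the 3 genes. None passed (adjusted p = 0.141, 0.272 and 0.282 in edgeR), and in this comparison 0 of the 9 genes were called, against 3.48% of all genes. At an unadjusted p under 0.05 there were 2 members, Pik3cd and Pik3cb, against 22.1% of all genes, and DESeq2 called 1, Pik3cd (adjusted p = 0.0243), against 16% of all genes. Without TPMCa replicate 2 the log2 fold changes were 1.19 for Pik3cd, 0.51 for Pik3cg and 1.01 for Pik3r5.

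In TPMR1 against TPMCa the values were -2.21 (-3.83 to -0.59) for Pik3cd, -2.76 (-4.54 to -0.98) for Pik3cg and -2.30 (-4.28 to -0.32) for Pik3r5. Every TPMR1 library was below every TPMCa library. None passed in edgeR (adjusted p = 0.376, 0.372 and 0.399), where 0 of the 9 genes and 0% of all genes were called. Of the 9 genes 4 had an unadjusted p under 0.05, against 1867 or 11.8% of all genes, and DESeq2 called 2 of the 9 and 772 or 4.96% of all genes. Without TPMR1 replicate 2, Pik3cd, Pik3cg and Pik3r5 passed, together with 1379 of all genes. Against TPM, Pik3cg had log2 fold changes of 1.50 in TPMCa and -1.26 in TPMR1, neither past the threshold, and both values rest on the same TPM libraries.

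The 3 genes varied with the leukocyte markers from library to library. Over the 8 libraries the Pearson r of log2 levels with the summed leukocyte markers was 0.95 for Pik3cd, 0.92 for Pik3cg and 0.93 for Pik3r5, again as a description. Some other lists moved along. The same 3 genes had r of 0.85, 0.79 and 0.91 with the fibroblast sum. With sums of leukocyte types r was 0.89, 0.88 and 0.80 (macrophage), 0.93, 0.82 and 0.86 (lymphocyte), and 0.50, 0.62 and 0.70 (neutrophil). Every remaining list gave an r of 0.45 or less. The leukocyte sum had the highest r for each gene, but given the fibroblast values the relation was not particular to leukocyte markers. Pik3cd ranged over 14.2-fold in CPM, but over 2.38-fold when divided by the leukocyte sum. Per 100 CPM of leukocyte markers it stood at 6.59 and 5.29 CPM in TPM, at 3.65 and 6.66 CPM in TPMCa, at 8.68 and 5.62 CPM in TPMR1, and at 3.68 and 3.91 CPM in TPK. On that scale TPMCa overlapped with TPM and with TPMR1. Pik3cg ranged over 20.2-fold in CPM and 2.84-fold per leukocyte marker, and Pik3r5 over 23.6-fold and 2.66-fold, and for these genes both TPM libraries were the highest of the 8. In bulk tissue, fewer leukocytes and less of a transcript per leukocyte cannot be told apart.

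**Figure D3:**
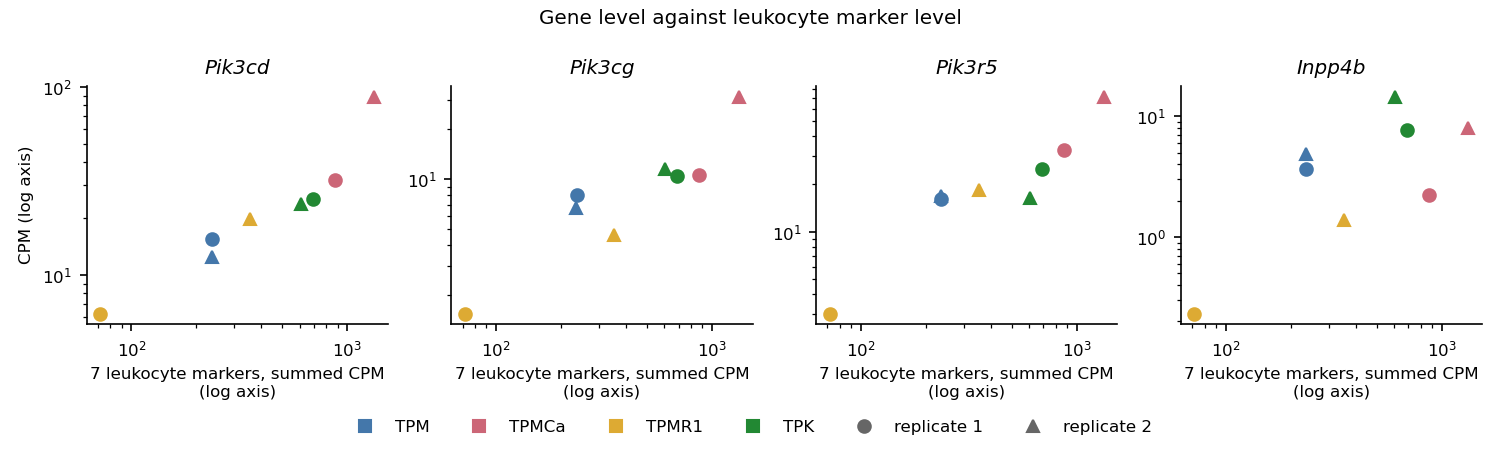
Level of Pik3cd, Pik3cg, Pik3r5 and Inpp4b (CPM, log axis) against the summed level of 7 leukocyte markers (CPM, log axis) in the 8 libraries, colored by model, with circles for replicate 1 and triangles for replicate 2. The 4 genes are lowest in TPMR1 replicate 1, where the markers are at 71.8 CPM, and all but Inpp4b are highest in TPMCa replicate 2, where the markers are at 1330 CPM.

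The promoters of the gamma subunit gene and its adaptor are shown because these genes moved together across libraries and are partners in 1 enzyme. Each window holds 250 bases before and 50 bases after the RefSeq start on GRCm38.p6, read 5′ to 3′ on the strand of the gene, which is the minus strand for Pik3cg (chr12:32208610-32208909) and the plus strand for Pik3r5 (chr11:68431875-68432174). The letters GAGGAAGT, a core bound by the myeloid and B cell factor PU.1, were searched on both strands after the values were seen. They stood in both Pik3cg windows, as the reverse complement in capitals. These windows overlap and hold the same match, so they do not count as separate hits. No window of the other 8 genes held the letters. Of all 32851 RefSeq promoter windows 3.20% held them. The Pik3cg window printed had a GC content of 40.7%, against 62.0% for Pik3r5 and a median of 52.7% over all windows. A match of letters is a description and not a binding site.
Pik3cg: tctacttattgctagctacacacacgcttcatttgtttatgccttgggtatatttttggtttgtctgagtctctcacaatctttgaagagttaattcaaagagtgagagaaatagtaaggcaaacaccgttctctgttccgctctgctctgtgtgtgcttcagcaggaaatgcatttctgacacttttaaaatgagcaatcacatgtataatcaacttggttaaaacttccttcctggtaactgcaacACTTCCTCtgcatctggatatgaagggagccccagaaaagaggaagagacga
Pik3r5: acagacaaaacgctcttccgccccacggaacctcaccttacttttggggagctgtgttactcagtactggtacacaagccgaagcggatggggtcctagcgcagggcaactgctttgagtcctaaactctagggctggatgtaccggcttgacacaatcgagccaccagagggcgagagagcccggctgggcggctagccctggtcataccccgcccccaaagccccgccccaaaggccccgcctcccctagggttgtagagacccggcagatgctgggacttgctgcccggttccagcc

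Pik3r1 (chr13:101680563-101768217) encodes the alpha regulatory subunit and is the gene targeted in TPMR1. It stood at 101 and 51.3 CPM in TPMR1, at 99.6 and 188 CPM in TPM, at 78.1 and 80.9 CPM in TPMCa, and at 159 and 156 CPM in TPK. The transcript was thus present in both edited libraries, and TPMR1 replicate 1 lay above TPM replicate 1. A Cas9 cut can alter the protein without removing the transcript, so these levels do not check the edit. The study itself reported Pik3r1 as disrupted by an endonuclease assay of organoids, and PIK3R1 protein staining as negative in TPMR1 tumors. TPMR1 against TPM did not pass (log2 fold change -0.92, -1.91 to 0.07, adjusted p = 0.245 in edgeR), nor did TPMCa against TPM (-0.85, -1.84 to 0.14, adjusted p = 0.282). TPMCa and TPMR1 did not differ from each other beyond their spread (-0.07, -1.05 to 0.92). Against TPM and TPK jointly, the log2 fold change was -0.95 (-1.65 to -0.25) with an adjusted p of 0.0672 in edgeR. TPMR1 replicate 1 and TPM replicate 1 overlapped in that comparison, by 101 against 99.6 CPM, and the adjusted p was 0.0256 without TPMR1 replicate 1 and 0.0214 in DESeq2, which called 31.7% of all genes. Without TPM replicate 2, the library with the highest level, TPMR1 against TPM was -0.39 and TPMCa against TPM -0.33, and without TPMR1 replicate 1 TPMR1 against TPM was -1.48. Over the 8 libraries Pik3r1 had an r of -0.84 with the summed endothelial markers and of 0.72 with the general epithelial ones, whose part in these values was not tested.

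Pik3r2 (chr8:70768176-70776713), the gene of the beta regulatory subunit, stood at 161 and 158 CPM in TPM, at 152 and 227 CPM in TPMCa, at 176 and 191 CPM in TPMR1, and at 193 and 166 CPM in TPK. Its spread of 1.49-fold was close to that of Pik3ca, and 3.84% of all genes tested had a smaller one. Its log2 fold change lay between -0.04 and 0.25 in all 5 comparisons. No interval reached below -0.68 (TPMR1 against TPMCa) or above 0.89 (TPMCa against TPM). Pik3r3 (chr4:116221618-116303056), which encodes the gamma regulatory subunit, stood at 87.6 and 57.5 CPM in TPM, at 75.7 and 73.9 CPM in TPMCa, at 39.0 and 53.2 CPM in TPMR1, and at 90.0 and 133 CPM in TPK. Both TPMR1 libraries were below the 6 others and both TPK libraries above them. TPMR1 against TPM had a log2 fold change of -0.65 (-1.43 to 0.13, adjusted p = 0.29 in edgeR) and TPK against TPM of 0.62 (-0.16 to 1.40, adjusted p = 0.735), and neither passed.

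Inpp4b (chr8:81342556-82127914) encodes a phosphatase that limits AKT activation and is known as a tumor suppressor in breast and prostate. Per kilobase of exon its level was the lowest of the 9 genes in every library, from 0.0178 to 1.11 CPM per kb. It stood at 3.67 and 4.92 CPM in TPM, 2.22 and 7.96 CPM in TPMCa, 0.232 and 1.39 CPM in TPMR1, and 7.77 and 14.5 CPM in TPK. TPMR1 replicate 1 held 6 counts, compared with 220 in TPK replicate 2, and the range over the 8 libraries was 62.4-fold, the widest of the 9. Both TPMR1 libraries were below the 6 others and TPK replicate 2 above them. TPMR1 against TPM had a log2 fold change of -2.42 (-4.84 to 0.01, adjusted p = 0.217 in edgeR), TPMR1 against TPMCa of -2.66 (-5.10 to -0.22, adjusted p = 0.412), and TPK against TPM of 1.37 (-0.93 to 3.67, adjusted p = 0.785). In the joint comparison it was -1.77 (-3.43 to -0.11, adjusted p = 0.123). None passed, and without TPMR1 replicate 2 the joint comparison did (adjusted p = 0.0394 in edgeR), as it did in DESeq2 (0.0412). Its Pearson r was 0.72 with the leukocyte sum, 0.73 with the macrophage sum, 0.69 with the general epithelial sum and 0.64 with the squamous sum. Per 100 CPM of leukocyte markers it stood at 0.254 to 0.599 CPM in the 4 TPMCa and TPMR1 libraries and at 1.13 to 2.39 CPM in the 4 TPM and TPK libraries, a split seen after the values were known and not tested. The epithelial sums separated the same libraries. The strand setting of the counting is not given in the sources used here, so reads of an antisense transcript annotated at Inpp4b and at Pik3r2 cannot be told apart from theirs. Other annotated genes overlap Pik3ca, Pik3cd, Pik3r1, Pik3r3 and Inpp4b on the same strand, which a strand setting would not resolve.

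TPK against TPM, the models without an engineered PI3K subunit gene, gave 0 called genes of 9 and 0% of all genes in edgeR. No member had an unadjusted p under 0.05 there, whereas 1138 or 7.17% of all genes did, and DESeq2 called none of the 9 and 240 or 1.51% of all genes. Groups that did not overlap were common throughout. They numbered 6 of 9 in TPMCa against TPM (61.3% of all genes), 5 of 9 in TPMR1 against TPM (52.9%), 7 of 9 in TPMR1 against TPMCa (36.5%) and 6 of 9 in TPK against TPM (47.9%). In TPMR1 against TPMCa all 7 were lower in TPMR1, a direction held by 17.7% of all genes tested. The 7 were Pik3ca, Pik3cb, Pik3cd, Pik3cg, Pik3r3, Pik3r5 and Inpp4b, and most marker lists had negative log2 fold changes there too. These were 7 of 7 for leukocytes, 6 of 6 for neutrophils, 8 of 8 for macrophages, 9 of 9 tested for lymphocytes, 7 of 7 for fibroblasts, 6 of 6 for endothelium and 6 of 6 for general epithelium, but 3 of 6 for squamous epithelium, 3 of 4 for the uterine markers and 1 of 5 for smooth muscle. The part of cell mixture in this count was not tested.

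Levels were compared between genes per kilobase of exon. Among the 4 catalytic genes, Pik3ca made up 43.5% and 45.9% of the CPM per kb in TPM, 50.5% and 29.7% in TPMCa, 69.3% and 56.6% in TPMR1, and 43.0% and 48.8% in TPK. It was the largest in 7 of the 8 libraries, and in TPMCa replicate 2 it came after Pik3cd at 45.8%. Pik3cb held 36.9% ± 2.5 (SD, n = 2) in TPM, 24.3% ± 2.2 in TPK, 18.7% ± 2.0 in TPMR1 and 14.9% ± 3.3 in TPMCa. The ratio of Pik3cb to Pik3ca per kb, which does not depend on library scaling, was 0.890 and 0.766 in TPM, 0.601 and 0.466 in TPK, 0.342 and 0.421 in TPMCa, and 0.290 and 0.306 in TPMR1. It was lower in all 4 libraries of TPMCa and TPMR1 than in any library of TPM or TPK. In TPMCa, reads of the introduced Pik3ca cDNA are part of the denominator of this ratio and of the catalytic shares. Counts per gene cannot tell them apart from reads of the endogenous transcript. Pik3cd and Pik3cg together held from 10.6% in TPMR1 replicate 1 to 57.8% in TPMCa replicate 2.

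Among Pik3r1, Pik3r2 and Pik3r3, Pik3r2 was the largest in every library, with 49.5% to 75.2% of the CPM per kb. Its share was 73.0% ± 3.1 (SD, n = 2) in TPMR1 and 66.7% ± 6.3 in TPMCa, compared with 57.7% ± 2.2 in TPM and 54.0% ± 6.4 in TPK. All 4 libraries of TPMR1 and TPMCa were above the 4 others. Pik3r1 held 8.35% to 16.8% in TPMCa and TPMR1 and 15.2% to 27.7% in TPM and TPK, and these ranges overlapped. The summed regulatory genes exceeded the summed catalytic genes per kb in every library, by 2.47-fold in TPMCa replicate 2 to 5.34-fold in TPMR1 replicate 1. No test was run on shares or ratios.

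**Figure D4:**
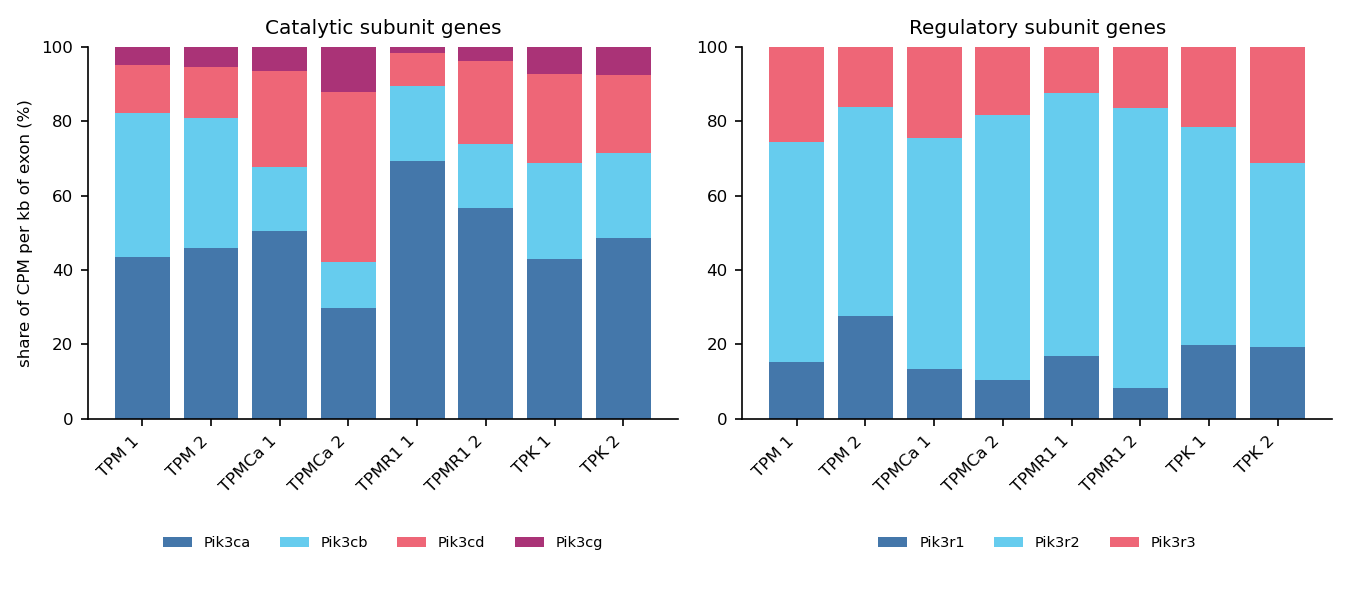
Share of each gene in the summed CPM per kilobase of exon of the 4 catalytic genes (left) and of Pik3r1, Pik3r2 and Pik3r3 (right), in percent, as stacked bars for each of the 8 libraries. Pik3ca was the largest catalytic share except in TPMCa replicate 2, where Pik3cd held 45.8%, and Pik3r2 was the largest regulatory share in every library, from 49.5% to 75.2%.

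The other genes of the pathway were read by list. In the joint comparison of TPMCa and TPMR1 with TPM and TPK, 2 of 9 adaptor and docking genes were called, both higher, beside 18.1% of all genes called and 6.64% called higher. They were Gab2, a docking protein that binds the regulatory subunit (log2 fold change 1.56, adjusted p = 0.0178 in edgeR), and its relative Gab3 (2.16, adjusted p = 0.0402 in edgeR). Gab2 stood at 14.6 to 17.6 CPM in TPM and TPK and at 33.3 to 86.5 CPM in TPMCa and TPMR1, without overlap, whereas Gab3 stayed at or under 3.56 CPM in every library. None of 5 class II and class III PI3K genes passed in edgeR with all libraries, and 2 had an unadjusted p under 0.05. DESeq2, which called 31.7% of all genes in the joint comparison, called 1. The median log2 fold change was 0.19 for the adaptors and -0.01 for the class II and class III genes, beside 0.02 over all genes.

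Of 17 other inositol lipid phosphatases, 1 passed against the same 18.1% of all genes, Inppl1, whose product SHIP2 removes a phosphate from phosphatidylinositol trisphosphate. It stood at 107 and 115 CPM in TPM, at 146 and 152 CPM in TPMCa, at 386 and 234 CPM in TPMR1, and at 131 and 114 CPM in TPK. It was higher in TPMR1 than in TPM (log2 fold change 1.48, 0.78 to 2.19, adjusted p = 0.0391 in edgeR) and higher in the joint comparison (0.88, 0.39 to 1.38, adjusted p = 0.0308). Of 14 tested genes of the PDK1, AKT and SGK list, none passed in edgeR in any comparison, with a median of 0.13 and 1 unadjusted p under 0.05 in the joint one. DESeq2 called 2 of them over the 4 models (30% of all genes), 2 for TPMCa against TPM (16%) and 1 for TPMR1 against TPMCa (4.96%). It called 0 of them in TPMR1 against TPM (18.1%), TPK against TPM (1.51%) and the joint comparison (31.7%). Of 17 genes of the mTOR complexes and the TSC axis, 1 passed in the joint comparison, Prr5, a subunit of mTOR complex 2. Prr5 stood at 6.02 and 7.15 CPM in TPM, at 5.09 and 2.44 CPM in TPK, at 12.7 and 24.1 CPM in TPMCa, and at 38.3 and 36.5 CPM in TPMR1. It rose in TPMR1 against TPM (2.50, 1.26 to 3.75, adjusted p = 0.0436 in edgeR) and in the joint comparison (2.40, 1.52 to 3.27, adjusted p = 0.0083).

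The 18 FOXO factors and FOXO-induced genes held 5 genes called higher and 1 called lower in the joint comparison, beside 6.64% and 11.5% of all genes, with a median log2 fold change of 0.51. The number of these 6 calls fell when any 1 library of TPM, TPK or TPMCa was left out. The same held for the number of calls over all genes. Without TPMR1 replicate 2 both numbers rose. AKT keeps FOXO factors out of the nucleus, which is why these genes are read beside PI3K. Foxo6, a FOXO factor, was at 1.20 to 8.19 CPM in TPM and TPK and at 29.4 to 72.9 CPM in TPMCa and TPMR1 (log2 fold change 3.73, adjusted p = 0.0028 in edgeR). Cited2, a transcriptional co-regulator, had 1.01 (adjusted p = 0.0173 in edgeR), and the stress-induced sestrins Sesn1 and Sesn3 had 0.93 and 1.20 (adjusted p = 0.0312 and 0.0173 in edgeR). Klf2, a factor of endothelial cells and lymphocytes, had 3.04 (adjusted p = 0.026 in edgeR), beside 6 of 6 endothelial markers with positive values, of which 3 were called. The receptor gene Erbb3 had -5.78 (adjusted p = 5.6e-04 in edgeR) and was also called in TPMCa and in TPMR1 against TPM, at -5.79 and -6.25, beside 6 of 6 general epithelial markers called lower. The part of cell mixture in these values was not tested. Of the 10 genes named from the lists, Erbb3, Foxo6 and Prr5 kept their joint call in all 15 alternative settings, whereas the others kept it in 4 to 10. In TPMR1 against TPM, where Foxo6 was also called higher (log2 fold change 2.95, adjusted p = 0.0318 in edgeR), the calls of Foxo6, Inppl1 and Prr5 held in 5 or 6 of 16.

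**Figure D5:**
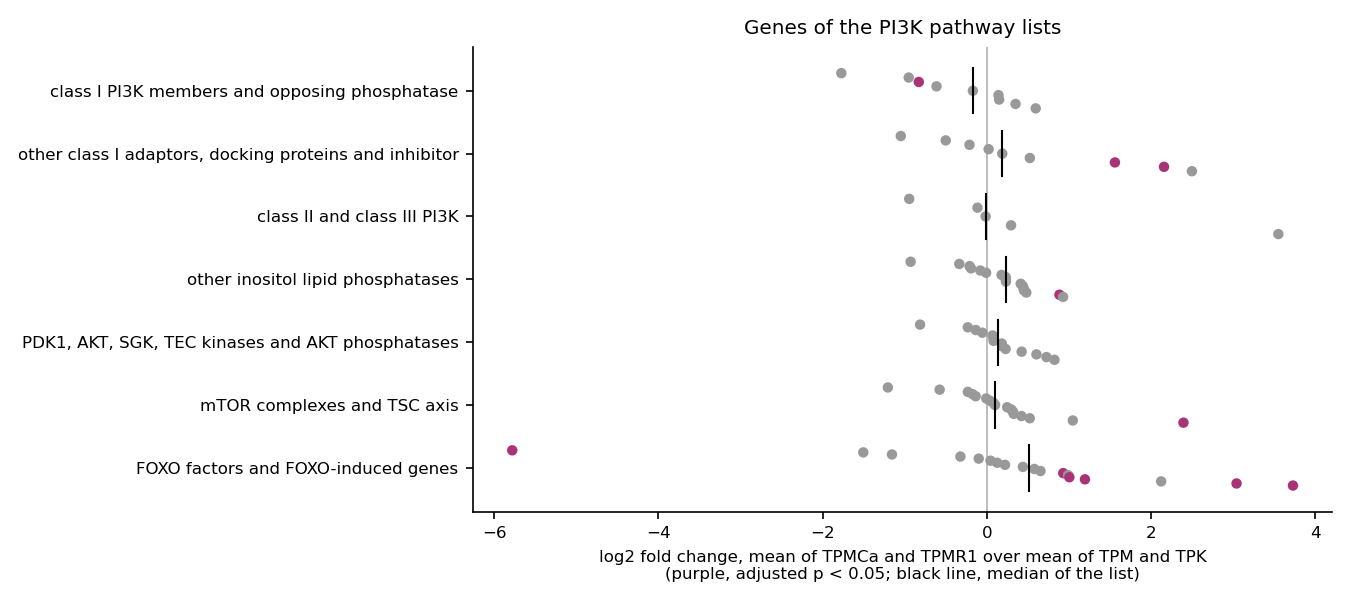
Log2 fold change of every tested gene of the 7 PI3K pathway lists in the mean of TPMCa and TPMR1 over the mean of TPM and TPK, one point per gene, in purple where the adjusted p was under 0.05, with a black line at the median of each list. The medians lie between -0.17 and 0.51, the purple points include Pik3cb in the uppermost list, and the lowest point of the last list is Erbb3 at -5.78.

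The genes whose log2 CPM most resembled each member over the 8 libraries were sought among 11712 genes, and the highest Pearson r is given as a description. For the leukocyte subunits they were genes of blood cells. Pik3cd was closest to Was, Hcls1 and Cd68 (r = 0.99 for each), Pik3cg to Rgs14, Fyb and Sash3 (0.98 to 0.99), and Pik3r5 to Prkcb, Coro1a and Cd37 (0.98 to 0.99), of which Coro1a is also among the leukocyte markers. Inpp4b was closest to Itgax, an integrin gene of dendritic cells and macrophages (0.99), then to Ltbp1 and Eif4e3 (0.98 for each). Pik3cb was closest to Slc6a8, Crybg3 and Nkd2 (0.96 to 0.97), Pik3ca to Rbsn, Rheb and Zfp326 (0.90 to 0.93), Pik3r1 to 2610015P09Rik, Becn1 and Tmco6 (0.94 to 0.96), Pik3r2 to Ccdc22, Stab1 and Bax (0.94 to 0.95), and Pik3r3 to Rab1, Gm14005 and Stxbp5 (0.98 to 0.99). Among the 9 genes themselves, the closest pairs were Pik3cd with Pik3r5 (0.94), Pik3cg with Pik3r5 (0.94) and Pik3cd with Pik3cg (0.93).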

How the data were processed

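RNA of 8 libraries, 2 for each of 4 models, was sequenced by the authors after polyA selection, aligned to mm10 with STAR and, per the labels, analyzed with DESeq2. The deposited table holds raw read counts per gene symbol, whole numbers with no normalization. The versions of STAR and DESeq2 and the counting tool are not given in the sources used here. The table contains 25 symbols turned into dates and 4109 genes at 0 in every library. In the table the TPM libraries are named TPMS.

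Counts were fitted in edgeR 4.0.16 (R 4.3.3) with 1 term per model over all 8 libraries, TMM factors, filterByExpr, quasi-likelihood tests and Benjamini-Hochberg adjustment over 15875 genes, with a threshold of 0.05. Intervals are 95% t intervals of that fit. The step was also run on simulated counts with the same spread in every model. Replicates here differed in spread between models, so that run does not check the calls. DESeq2 1.42.0, other scaling, filters, a replicate block and left-out libraries were tried as alternatives. CPM use the TMM factors, and lengths, exons and sites come from GENCODE M21 on GRCm38. Named genes were all 9 members, pathway genes past the threshold (at most 6 a list), the 3 closest genes per member averaging 2 or more on the log2 CPM scale, and the leading gene and any zero of each marker list. Members and lists were chosen with earlier results of these data known. Some engineered genes are left out of this text.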

Additional observations from a re-analysis of the deposited data

How the results depend on the processing

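With 2 libraries a model and totals of 15748396 to 26943611 counts, the number of libraries limits the precision of every member, and the counts of Inpp4b, 6 to 220 per library, limit it further. Over all comparisons and settings no member call turned direction.

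DESeq2 called 4765 genes over the 4 models, 2547 for TPMCa against TPM, 2867 for TPMR1 against TPM, 772 for TPMR1 against TPMCa, 240 for TPK against TPM and 5036 in the joint comparison, compared with 1162, 553, 886, 0, 0 and 2880 in edgeR. Of the 9 members it called 4, 1, 1, 2, 0 and 3. Replicate numbers do not pair the samples: deviations of same-numbered libraries correlated at -0.07 to -0.01. With a replicate block in the fit, 631 genes were called over the 4 models, 362 for TPMCa against TPM and 557 for TPMR1 against TPM, and Pik3cb was lost, leaving 0 members in TPMR1 against TPM and 0 in the joint comparison. Library size alone and no low-count filter also left 0 members in both. With only the models compared in the fit, 1264 genes were called for TPMCa against TPM, and 53 genes and 0 members for TPMR1 against TPM. Without TPMCa replicate 2 and TPMR1 replicate 1, chosen after seeing the data, 1074 genes were called for TPMCa against TPM, 0 members for TPMR1 against TPM, and 3635 genes and 2 members, Pik3r1 and Inpp4b, in the joint comparison. The cause of these changes was not tested.

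Leaving out each library in turn gave 169 to 3193 genes and 0 to 2 members over the 4 models, 38 to 1643 genes and 0 members for TPMCa against TPM, 164 to 2059 genes and 0 members for TPMR1 against TPM, 0 to 1379 genes and 0 to 3 members for TPMR1 against TPMCa, 0 genes and 0 members for TPK against TPM, and 1085 to 3582 genes and 0 to 2 members in the joint comparison. TPK replicate 2, TPMCa replicate 1 and TPM replicate 1 gave the lowest of these counts above 0 and TPMR1 replicate 1 or 2 the highest.

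Signs changed in 26 cases, all of members that were not called. For TPMCa against TPM, Inpp4b was at -0.065 with the block and, without TPMCa replicate 2 and TPMR1 replicate 1, Pik3r2 was at -0.066 and Inpp4b at -0.95. Without the same libraries TPMR1 against TPM gave 0.51 for Pik3cd and 0.15 for Pik3r5, and TPMR1 against TPMCa gave 0.34 for Pik3r2. With library size alone the median of all genes in TPK against TPM was -0.11, compared with 0.01, and Pik3ca was at -0.017 and Pik3r1 at -0.015. With 1 library left out, log2 fold changes ranged for TPMCa against TPM from -0.067 to 0.52 (Pik3r2), -0.23 to 0.39 (Pik3r3) and -0.95 to 0.91 (Inpp4b). They ranged for TPMR1 against TPM from -0.10 to 0.26 (Pik3ca), -1.16 to 0.51 (Pik3cd) and -2.44 to 0.15 (Pik3r5), and for TPMR1 against TPMCa from -0.63 to 0.34 (Pik3r1) and -0.33 to 0.27 (Pik3r2). For TPK against TPM they ranged from -0.062 to 0.25 (Pik3ca), -0.27 to 0.66 (Pik3r1) and -0.013 to 0.61 (Pik3r5), and in the joint comparison from -0.66 to 0.12 (Pik3cg), -0.017 to 0.27 (Pik3r2) and -0.56 to 0.74 (Pik3r5). With the longest transcript in place of all exons, 8 of 28 shares moved by more than 1 SD, Pik3ca to 41.1% in TPM and 41.4% in TPK, Pik3cd to 15.1% and 25.2%, Pik3cg to 6.72% and 9.45%, Pik3r1 to 22.1% in TPK and Pik3r3 to 11.3% in TPMR1.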
